A study of Homo sapiens with 6 samples.

Results

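The genes described here encode the chaperones of the cytosol and of mitochondria, with the heat shock factors that regulate many of them and a pair of mitochondrial proteases. They were listed by symbol, 38 in all, and a gene was read where the platform annotation mapped a probe set to its symbol alone, which held for 34 of the 38. Of those 34, 26 act in the cytosol, 7 in mitochondria and 1, HSF1, in the nucleus, and all 34 passed the filter on dim probe sets. HSPA8 and TCP1 were represented only by probe sets shared with small nucleolar RNA genes, 4 and 3 of them, and HSF2 and AHSA1 had no probe set mapped to them alone, so these 4 members were not analysed here. The measurements came from 6 expression arrays of Daoy cells, an established human medulloblastoma line, 2 arrays in each of 3 groups. Cells were left untreated or were exposed to 1 µM thapsigargin (Tg) for 3 h or 8 h, and every culture was kept in the same serum-containing medium. Thapsigargin inhibits the calcium pump of the endoplasmic reticulum (ER) and so elicits the unfolded protein response (UPR). All groups come from 1 cell line, and the untreated cultures carry no time of their own.

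The deposited value of a probe set was its MAS5 signal, a linear intensity that the authors had scaled to a common trimmed mean on every array (500.07 to 500.08). Signals were put on the log2 scale and the 27616 probe sets that reached a signal of 100 on 2 or more arrays were tested with limma, with Benjamini-Hochberg adjustment and a threshold of 0.05. Each gene was read from its brightest probe set. The hybridization controls separated the arrays by replicate number, their geometric means being 7762 to 11670 for replicate 1 and 2718 to 2840 for replicate 2. Each number held all 3 groups, so each test was repeated with the number entered as a block. Of the markers of neural cells and their precursors, VIM was at 31015.6 to 52822.4 and TUBB3 at 10182.5 to 20648.3, but SOX9 was at 601.3 to 1418.7. NES (110.2 to 358.2) and MAP2 (188.6 to 483.3) were dim, both under 500. Of other cell types, PTPRC of leukocytes stayed at 5.2 to 53.3, GFAP of astrocytes at 3.2 to 28.1 and CDH5 of endothelium at 6.1 to 109.3. EPCAM of epithelium was higher, at 169.2 to 301.7, and PECAM1 of endothelium was at 71.8 to 134.9, and both passed the filter on dim probe sets. OLIG2 of glia also passed it, with 74.9 and 184.5 in untreated cells, 177.4 and 320.1 at Tg 3 h and 397.7 and 481 at Tg 8 h. The precision is limited by having 2 arrays in a group, and a p-value here reflects no more than the spread among the 6 arrays, which may be technical.

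Chaperones of the HSP70 class bind exposed hydrophobic stretches of unfolded proteins in cycles of ATP hydrolysis, which J proteins (HSP40) start and nucleotide exchange factors end. HSP90 takes over clients near their native state, and TRiC, a ring-shaped chaperonin fed by prefoldin, encloses actin, tubulin and other proteins while they fold. Mitochondria hold their own set, of bacterial ancestry, with HSPA9, the HSPD1 and HSPE1 chamber, TRAP1 and the proteases LONP1 and CLPP. In the cytosol, misfolded protein releases HSF1, which binds heat shock elements in the promoters of many of these genes, whereas the UPR of the ER acts through other factors and, for BiP and GRP94, through the ER stress element.

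Promoters of members and of their ER counterparts were searched for these elements, since the elements are known from genes induced by different kinds of stress. The sequences are RefSeq's on GRCh38.p14, from 250 bases before to 50 bases after each annotated start, and 30 of the 34 members matched. The heat shock element was searched as 3 alternating units, GAANNTTC followed directly by NNGAA, on either strand, so a match also holds the pair TTCNNGAA. The pairs GAANNTTC and TTCNNGAA stood in 10 and 9 of the 30 members, against 8.21% and 9.46% of all genes (6.77% and 7.74% of promoters). The full element was found in 5 of the 30 members, HSP90AA1, HSP90AB1, DNAJA1, DNAJB6 and HSPD1, against 0.608% of 27305 genes and 0.49% of 35116 promoters. The ER stress element, CCAAT, 9 bases of any kind and CCACG, on either strand, was found in 0 of the 30 members, in HSPA5 and HSP90B1 among 8 ER counterparts, and in 0.0916% of all genes (0.0769% of promoters). TGATGNAA, an amino acid response element, was found in 0 of the 30 members and in 4.46% of all genes (3.62% of promoters). A match describes letters only and is not a measured binding site. The windows printed here show 4 members with the heat shock element and the 2 ER genes with the other element, each 5′ to 3′ on the gene's strand with the matches in capitals.
HSP90AA1, chr14:102086995-102087294, minus strand: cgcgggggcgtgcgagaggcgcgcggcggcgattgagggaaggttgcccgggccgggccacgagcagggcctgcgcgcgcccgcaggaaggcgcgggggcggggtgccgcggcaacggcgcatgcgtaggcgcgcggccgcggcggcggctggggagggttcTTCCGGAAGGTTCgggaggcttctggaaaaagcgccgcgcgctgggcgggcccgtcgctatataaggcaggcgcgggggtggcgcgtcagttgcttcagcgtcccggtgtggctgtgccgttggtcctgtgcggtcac
HSP90AB1, chr6:44247693-44247992, plus strand: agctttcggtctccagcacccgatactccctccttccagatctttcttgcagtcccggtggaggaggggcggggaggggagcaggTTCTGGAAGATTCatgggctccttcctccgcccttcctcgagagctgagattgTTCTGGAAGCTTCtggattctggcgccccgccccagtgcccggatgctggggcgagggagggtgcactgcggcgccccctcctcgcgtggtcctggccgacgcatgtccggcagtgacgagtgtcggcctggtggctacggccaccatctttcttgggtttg
DNAJA1, chr9:33025023-33025322, plus strand: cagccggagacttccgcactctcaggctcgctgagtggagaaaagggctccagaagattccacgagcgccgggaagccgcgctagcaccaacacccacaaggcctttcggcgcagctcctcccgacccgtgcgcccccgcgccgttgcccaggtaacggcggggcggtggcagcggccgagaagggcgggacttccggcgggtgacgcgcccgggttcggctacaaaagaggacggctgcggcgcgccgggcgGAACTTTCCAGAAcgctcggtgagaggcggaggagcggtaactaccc
HSPD1, chr2:197499791-197500090, minus strand: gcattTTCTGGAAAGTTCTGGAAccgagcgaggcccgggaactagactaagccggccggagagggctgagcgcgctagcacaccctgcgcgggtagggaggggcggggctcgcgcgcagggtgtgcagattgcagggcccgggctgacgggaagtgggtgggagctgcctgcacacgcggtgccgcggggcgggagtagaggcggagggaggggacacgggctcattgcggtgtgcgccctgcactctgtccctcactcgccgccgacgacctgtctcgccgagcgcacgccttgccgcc
HSPA5, chr9:125241294-125241593, minus strand: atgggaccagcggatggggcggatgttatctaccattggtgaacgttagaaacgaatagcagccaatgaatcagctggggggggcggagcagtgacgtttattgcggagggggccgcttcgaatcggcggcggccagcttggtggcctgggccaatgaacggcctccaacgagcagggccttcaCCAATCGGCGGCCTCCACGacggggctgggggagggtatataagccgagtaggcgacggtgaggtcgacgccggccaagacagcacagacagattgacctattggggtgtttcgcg
HSP90B1, chr12:103930160-103930459, plus strand: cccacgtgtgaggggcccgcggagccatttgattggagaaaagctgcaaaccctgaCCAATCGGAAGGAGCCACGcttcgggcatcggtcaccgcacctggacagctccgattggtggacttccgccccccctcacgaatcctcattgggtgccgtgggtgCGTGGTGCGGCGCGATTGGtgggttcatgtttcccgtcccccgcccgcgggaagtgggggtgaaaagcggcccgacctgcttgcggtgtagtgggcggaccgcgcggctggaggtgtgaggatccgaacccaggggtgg
HSP90AA1, HSP90AB1 and HSPD1 have 2, 3 and 2 annotated starts, and the window of each that holds the element is the one shown. The DNAJA1 match lies 4 to 16 bases after the start, and the HSP90AA1 match 88 to 76 bases before it. In HSPD1 the elements overlap in a run from 245 to 228 bases before the start shown, in the stretch between that start and the start of its divergent neighbour HSPE1, 539 bases away. The other annotated HSPD1 start lies 105 bases from that of HSPE1, so the elements lie downstream of that other start.

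Without the block, 0 of the 34 members passed at either time, where the share of all tested probe sets that did was 0.0543% (3 h) and 0.659% (8 h). Before adjustment, with p under 0.05 as the mark, DNAJB4 was the 1 member higher at 3 h (2.85% of all tested probe sets). At 8 h the members past that mark were PFDN2 and HSPA9 among the higher (4.74%) and DNAJA1 among the lower (5.23%). With the block, 0 members passed at 3 h (0.992%) and 4 of 34, or 11.8%, at 8 h (6.59%). PFDN2, HSPA9 and LONP1 rose, where 3.79% of all tested probe sets did, and DNAJA1 fell, where 2.8% did. The members are bright, 32 of the 34 with a mean signal of at least 2000, and 13.8% of the 4808 probe sets that bright passed at 8 h with the block, so the members' share was near that of probe sets of their signal. The study's methods name a local pooled error test. A version of that test was run here, and it called fewer probe sets than the paper reports. Its result does not stand for that of the authors' procedure. By this version 0 members passed at 3 h, at 8 h or between these times, where 0.185%, 0.967% and 0.199% of probe sets did. The median log2 fold change over members was -0.07 at 3 h and -0.08 at 8 h, beside -0.02 and -0.09 over all tested probe sets. At 8 h the members spanned -0.67 to 0.80, less than a 2-fold change in either direction, and the 95% interval of a member's log2 fold change reached a median of 0.58 to either side without the block and 0.29 with it.

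**Figure D1:**
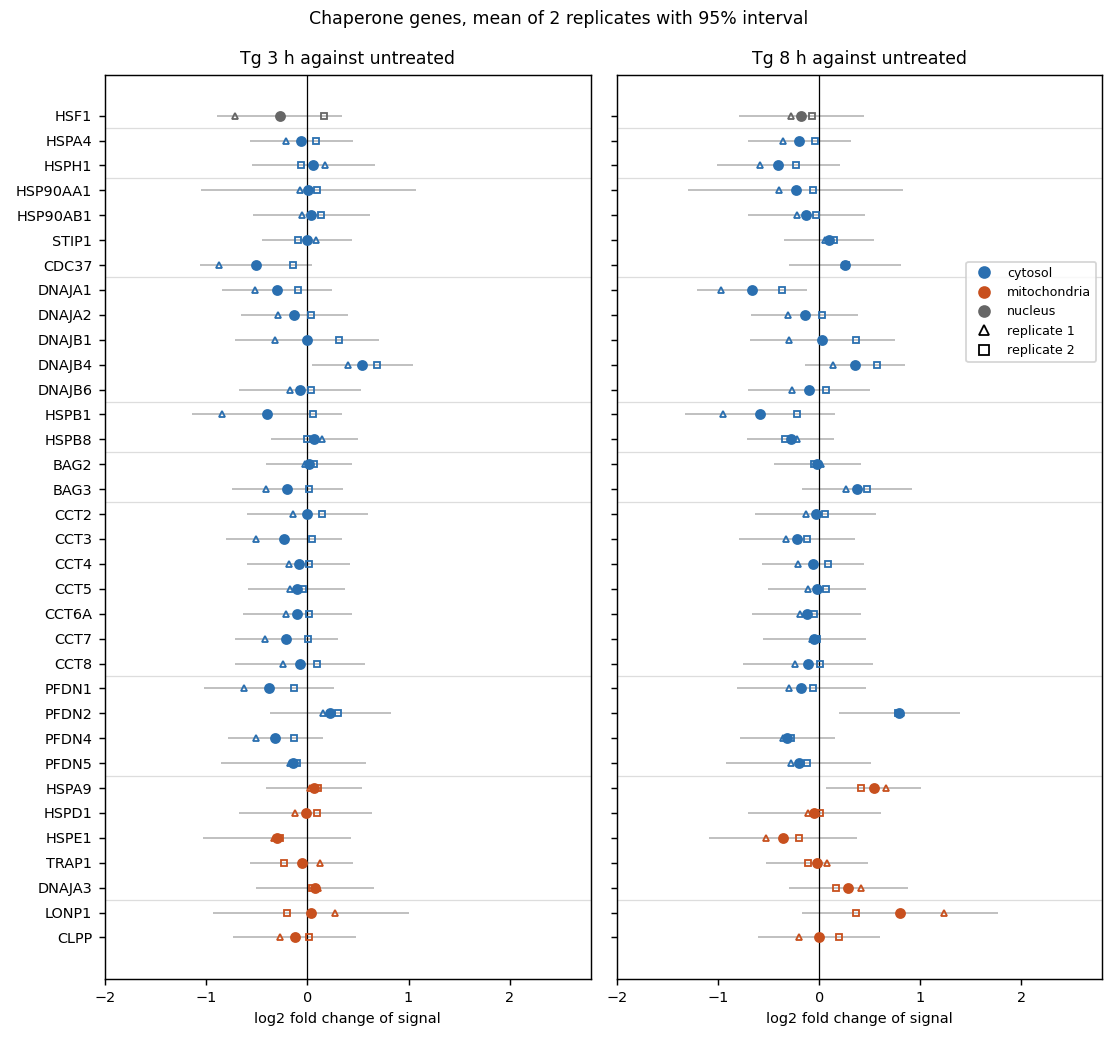
Log2 fold change of signal (horizontal axis) of the 34 members, Tg 3 h (left) and Tg 8 h (right) against untreated, ordered by role with grey lines between roles. Filled points are means of 2 replicates with the 95% interval of limma without the block, triangles and squares the values within replicate 1 and 2. No member lies beyond -0.67 or 0.80 at 8 h, and the replicate 1 value lies to the left of the replicate 2 value for 28 members at 3 h and 27 at 8 h.

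The members' median at 3 h was -0.18 within replicate 1 and 0.02 within replicate 2, and CDC37, the lowest, had -0.88 and -0.14. Tg 3 h replicate 1 also had the highest ratio of 3′ to 5′ ACTB signal, a sign of RNA quality, at 4.47 against 2.75 to 3.49 on the other arrays, and the highest median signal, 103 against 69.7 to 89.1. The same ratio for GAPDH did not set it apart, at 1.24 on this array and on Tg 8 h replicate 2 and 1.13 to 1.22 on the rest. The part of these differences in the members' values was not tested.

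PFDN2, a beta-type subunit of prefoldin, had signals of 8764.3 and 6514.9 in untreated cells, 9743.9 and 8021.7 at Tg 3 h and 15326.7 and 11185.5 at Tg 8 h (replicates 1 and 2). Both Tg 8 h arrays lay above both untreated and both Tg 3 h arrays. Its log2 fold change at 8 h was 0.79 (standard error 0.26 and limma adjusted p = 0.328 without the block, 0.11 and 0.00291 with it), and it was 0.81 within replicate 1 and 0.78 within replicate 2. It was the only member whose 8 h call with the block held when any of the 6 arrays was left out, with values of 0.74 to 0.84. PFDN2 was also the 1 member that differed between Tg 8 h and Tg 3 h with the block, by 0.57 (adjusted p = 0.0326, and 0.79 without it), where 2.46% of all tested probe sets differed and 1.28% were higher. That call was lost when any one of the 4 treated arrays was left out. Without the block limma found 0 probe sets that differed between these times, and at an unadjusted p under 0.05 it found CDC37 and BAG3 higher among the members (2.54%). No other prefoldin subunit passed. PFDN4, another beta-type subunit, had 7077.4 and 5970.5 in untreated cells, 4984.1 and 5465.3 at Tg 3 h and 5531.8 and 4921.9 at Tg 8 h. All 4 of its treated arrays lay below both untreated ones, with a log2 fold change of -0.32 at both times (adjusted p = 0.680 at 8 h, and 0.202 with the block). PFDN1 had -0.18 and PFDN5 -0.20 at 8 h, with overlapping arrays.

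HSPA9, the mitochondrial HSP70 that also pulls proteins through the inner membrane, had 7832.9 and 8393.6 in untreated cells, 7987.0 and 9013.9 at Tg 3 h and 12405.7 and 11163.3 at Tg 8 h. The Tg 8 h arrays stood above the other 4. Its log2 fold change was 0.07 at 3 h, and 0.54 at 8 h with a standard error of 0.20 (adjusted p = 0.432, and 0.0296 with the block). Its further probe sets that were tested had 0.37 and 0.34 at 8 h (adjusted p = 0.137 and 0.320 with the block), and the mean of all 4 of its probe sets, one of them dim, had 0.10. LONP1, the ATP-dependent protease of the mitochondrial matrix, had 1703.5 and 4042.8 in untreated cells, 2060.4 and 3510.1 at Tg 3 h and 4012.4 and 5201.0 at Tg 8 h. Its untreated arrays differed more from each other, by 1.25 on the log2 scale with replicate 2 the brighter, than the groups did, and the lower Tg 8 h array lay just under the higher untreated one. Its log2 fold change at 8 h was 0.80, with a standard error of 0.42 and adjusted p = 0.595 without the block and of 0.19 and 0.0346 with it, and it was 1.24 within replicate 1 and 0.36 within replicate 2. Without untreated replicate 1 its value in limma was 0.18, and without untreated replicate 2 it was 1.42.

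DNAJA1, a J protein that serves cytosolic HSP70, had 20869.7 and 15610.9 in untreated cells, 14590.8 and 14639.9 at Tg 3 h and 10662.9 and 12112.2 at Tg 8 h. Its groups did not overlap at any step, and the untreated arrays were the highest. Its log2 fold change was -0.30 after 3 h and -0.67 after 8 h, with a standard error of 0.24 (adjusted p = 0.373, and 0.0255 with the block), and its second probe set also had -0.67 at 8 h (adjusted p = 0.0281 with the block). Within replicates 1 and 2 the brighter probe set had -0.97 and -0.37. This is the member with the heat shock element just after its start. With the block, the 8 h calls of DNAJA1, HSPA9 and LONP1 were lost without untreated replicate 1 (adjusted p = 0.246, 0.200 and 0.354) and without Tg 8 h replicate 1 (adjusted p = 0.270, 0.381 and 0.314), and that of HSPA9 also without untreated replicate 2 (adjusted p = 0.0706). The fold changes moved by different amounts. Without untreated replicate 1 the blocked log2 fold change was -0.41 for DNAJA1, 0.49 for HSPA9 and 0.46 for LONP1, and without Tg 8 h replicate 1 it was -0.47, 0.39 and 0.48. Without untreated replicate 2 HSPA9 had 0.58.

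**Figure D2:**
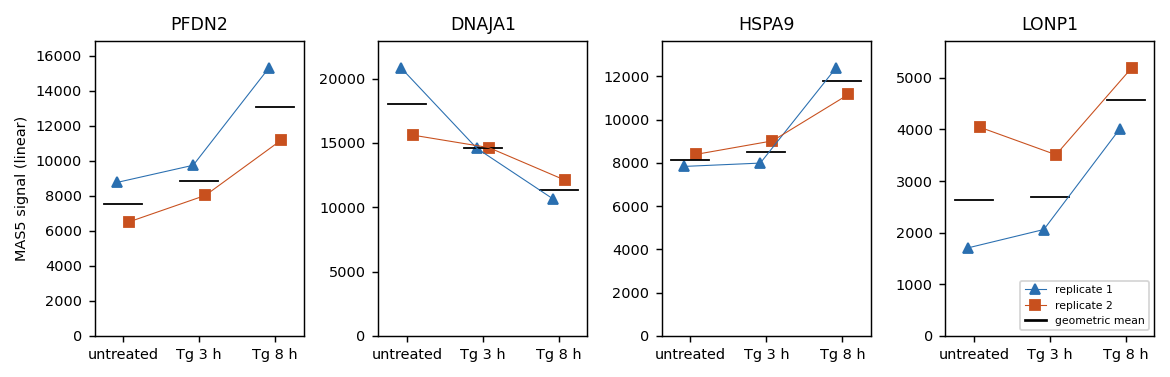
MAS5 signal (vertical axis, linear, from 0) of the 4 members that passed at 8 h with the replicate block, by group. Triangles and squares are replicates 1 and 2, joined by thin lines, and black bars are geometric means of 2 arrays. Both replicates of PFDN2, HSPA9 and LONP1 were higher at Tg 8 h than in untreated cells of the same number, and both of DNAJA1 lower, while LONP1 had the largest ratio between replicates, in untreated cells.

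HSF1, the main factor of the heat shock response, had 1071.2 and 924.5 in untreated cells, 651.6 and 1037.3 at Tg 3 h and 884.0 and 878.8 at Tg 8 h. Its log2 fold changes were -0.28 and -0.18 (adjusted p = 0.912 at 8 h, and 0.719 with the block), and its transcript says nothing of the activity of the protein. The second probe set of HSF1, on dim signals, had -0.74 at 3 h and 0.00 at 8 h. HSPA4 and HSPH1 belong to the HSP110 class, which exchanges nucleotide on HSP70. HSPA4 had 12735.3 and 9792.3 in untreated cells, 10996.2 and 10406.0 at Tg 3 h and 9954.3 and 9544.6 at Tg 8 h, a log2 fold change of -0.20 at 8 h. HSPH1 had 6830.6 and 5195.5 in untreated cells, 7711.8 and 4978.3 at Tg 3 h and 4561.3 and 4440.3 at Tg 8 h. Both Tg 8 h arrays of HSPH1 lay below both untreated arrays, with -0.40 (95% interval -1.01 to 0.20, adjusted p = 0.687, and 0.156 with the block), and its second tested probe set had -0.58.

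Neither the stress-inducible nor the constitutive cytosolic HSP90 gene passed a test. The inducible HSP90AA1 had 80986.7 and 39551.9 in untreated cells, 77036.3 and 42205.9 at Tg 3 h and 61610.7 and 37813.0 at Tg 8 h. Replicate 1 was the brighter in every group, and the log2 fold change at 8 h was -0.23 (95% interval -1.29 to 0.83, and -0.49 to 0.03 with the block). The constitutive HSP90AB1 had -0.13 at 8 h (95% interval -0.70 to 0.45), and both promoters carry the heat shock element. Of their partners, STIP1, which links HSP70 to HSP90, had 0.10 at 8 h, and its second probe set had -0.12. CDC37, which hands kinases to HSP90, had 4857.2 and 3876.5 in untreated cells, 2646.9 and 3517.9 at Tg 3 h and 5754.4 and 4658.9 at Tg 8 h. Both Tg 3 h arrays lay below the other 4, a difference of -0.51 on the log2 scale at 3 h (adjusted p = 0.315 with the block). Between Tg 8 h and Tg 3 h CDC37 differed by 0.76 (adjusted p = 0.551, and 0.0627 with the block).

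Among the other cytosolic J proteins, the brighter probe set of DNAJB4 was higher on both treated arrays at both times. It had 784.1 and 657.2 in untreated cells, 1034.3 and 1060.0 at Tg 3 h and 859.6 and 979.1 at Tg 8 h, with log2 fold changes of 0.54 (unadjusted p = 0.0356, adjusted p = 0.274 with the block) and 0.35. Its second probe set had 0.12 at 3 h and 0.07 at 8 h, with overlapping arrays. DNAJB1, a classical heat shock gene, had 3116.6 and 3233.3 in untreated cells, 2493.7 and 4013.6 at Tg 3 h and 2535.8 and 4158.1 at Tg 8 h. Replicate 1 was lower and replicate 2 higher after treatment at both times, and the log2 fold change at 8 h was 0.03. DNAJA2 and DNAJB6 had -0.14 and -0.10 at 8 h, and the second probe set of DNAJA2 had 0.05.

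The small heat shock proteins hold unfolding proteins without using ATP. HSPB1 had 7043.6 and 6610.0 in untreated cells, 3910.2 and 6872.8 at Tg 3 h and 3642.9 and 5676.1 at Tg 8 h. Both Tg 8 h arrays lay below the untreated ones, with a log2 fold change of -0.59 (95% interval -1.32 to 0.15, adjusted p = 0.611, and 0.116 with the block). HSPB8 had 2495.4 and 2757.3 in untreated cells, 2751.1 and 2744.4 at Tg 3 h and 2138.5 and 2180.7 at Tg 8 h, a difference of -0.28 at 8 h with no overlap (adjusted p = 0.253 with the block). BAG3, which joins HSPB8 and HSP70 in selective autophagy, had 1988.2 and 2115.5 in untreated cells, 1497.9 and 2131.8 at Tg 3 h and 2393.3 and 2943.6 at Tg 8 h. Its Tg 8 h arrays were the highest, at 0.37 (adjusted p = 0.677, and 0.182 with the block). BAG2 moved least of the 4, with 3934.3 and 4023.7 in untreated cells, 3864.0 and 4197.1 at Tg 3 h and 3972.6 and 3887.2 at Tg 8 h, or -0.02 at 8 h.

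By their brightest probe sets the 7 measured TRiC subunits kept together, at log2 fold changes of -0.23 to 0.00 at 3 h and -0.22 to -0.03 at 8 h, and 0 of the 7 passed in any of the 3 tests. The second tested probe sets of CCT4, CCT5 and CCT6A had the other sign at 8 h, at 0.22, 0.06 and 0.02, on dim signals for CCT4 and CCT5. That of CCT2 had -0.05. CCT3 had the lowest value at 8 h, with 15511.8 and 12862.5 at Tg 8 h against 19447.2 and 13935.7 in untreated cells. CCT5 lay at the other end, with 14758.2 and 15009.3 at Tg 8 h against 15986.1 and 14356.5 in untreated cells. The 95% intervals of the 7 subunits at 8 h reached from -0.80 to 0.56 without and from -0.53 to 0.25 with the block, which leaves room for a change of that size. Within replicate 1 their median at 8 h was -0.19 and within replicate 2 it was 0.01.

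Of the mitochondrial members other than HSPA9 and LONP1, HSPD1, the subunit of the folding chamber, had 46160.3 and 33833.8 in untreated cells, 42330.7 and 36023.6 at Tg 3 h and 42762.2 and 34094.1 at Tg 8 h, a log2 fold change of -0.05 at 8 h (95% interval -0.71 to 0.61, and -0.29 to 0.19 with the block). HSPE1, the lid of that chamber, had 28885.6 and 18536.1 in untreated cells, 23016.0 and 15354.1 at Tg 3 h and 20079.7 and 16165.1 at Tg 8 h. Its treated arrays were lower than the untreated array of the same number at both times, with log2 fold changes of -0.30 and -0.36 (adjusted p = 0.114 at 8 h with the block). TRAP1, the mitochondrial HSP90, had -0.02 at 8 h, and DNAJA3, the J protein of HSPA9, had 0.29 (adjusted p = 0.225 with the block). CLPP, a matrix protease, had 3775.4 and 2444.2 in untreated cells, 3137.1 and 2465.9 at Tg 3 h and 3286.2 and 2795.5 at Tg 8 h, or 0.00.

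Set side by side, the median log2 fold change at 8 h was -0.12 over the 26 cytosolic members and 0.00 over the 7 mitochondrial members, a difference of -0.11, and of -0.05 when all probe sets of a gene were averaged. It was -0.30 within replicate 1 and -0.19 within replicate 2. At 3 h the medians were -0.08 and -0.02, a difference of -0.06 that became 0.05 with all probe sets averaged, and was -0.23 within replicate 1 and 0.01 within replicate 2. In the cytosol 6 members lay above 0 and 20 below at 8 h, and in mitochondria 3 above and 4 below, where 40.9% of all tested probe sets lay above 0. With the block, 1 cytosolic member rose and 1 fell, and 2 mitochondrial members rose and 0 fell, beside the shares of 3.79% higher and 2.8% lower over all tested probe sets. No test over members was made, so the compartments were not shown to differ. Counted by arrays, 5 of the 34 members (14.7%) had both Tg 8 h arrays above both untreated arrays, against 14.9% of all tested probe sets, and 7 (20.6%) had both below, against 24.5%. At 3 h these were 1 (2.94%), against 14%, and 4 (11.8%), against 15.9%. Between Tg 8 h and Tg 3 h, 6 members (17.6%) were higher in this sense, against 13.4%, and 6 lower, against 20.9%. The 5 members with the full heat shock element in their promoter had a median of -0.13 at 8 h, with a highest value of -0.05. The other 25 with a promoter had a median of -0.05 and a range of -0.59 to 0.80, which covers most of the 5. At 3 h the order was the other way, with medians of -0.02 with the full element and -0.07 without it. Those 25 are not free of its units. Among them DNAJB1, HSPB1, HSPB8 and HSPA9 hold a pair, and the elements between HSPD1 and HSPE1 were counted for HSPD1 alone.

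The chaperones of the ER itself moved on the same arrays. Of 8 ER counterparts, 1 rose at 3 h and 6 at 8 h without the block, where 0.0543% and 0.659% of all tested probe sets passed in either direction. With the block 7 and 7 rose (0.992% and 6.59%), and by the local pooled error test 3 and 6 (0.185% and 0.967%). Their median log2 fold change was 1.57 at 3 h and 2.32 at 8 h, beside -0.02 and -0.09 over all tested probe sets. SIL1 passed none of these tests, with -0.14 at 3 h and 0.61 at 8 h. HSP90B1 (GRP94), the ER paralog of the HSP90 genes, rose by 2.36 after 8 h, with a limma adjusted p of 0.00803 and a standard error of 0.22, with 21485.3 and 16713.7 at Tg 8 h against 3665.8 and 3734.4 in untreated cells. HSPA5 (BiP), the HSP70 of the ER, had 1.70 (adjusted p = 0.12, and 0.00156 with the block), with 75398.1 and 44209.5 at Tg 8 h against 16614.5 and 18933.2 in untreated cells. Both of these promoters carry the ER stress element printed above.

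**Figure D3:**
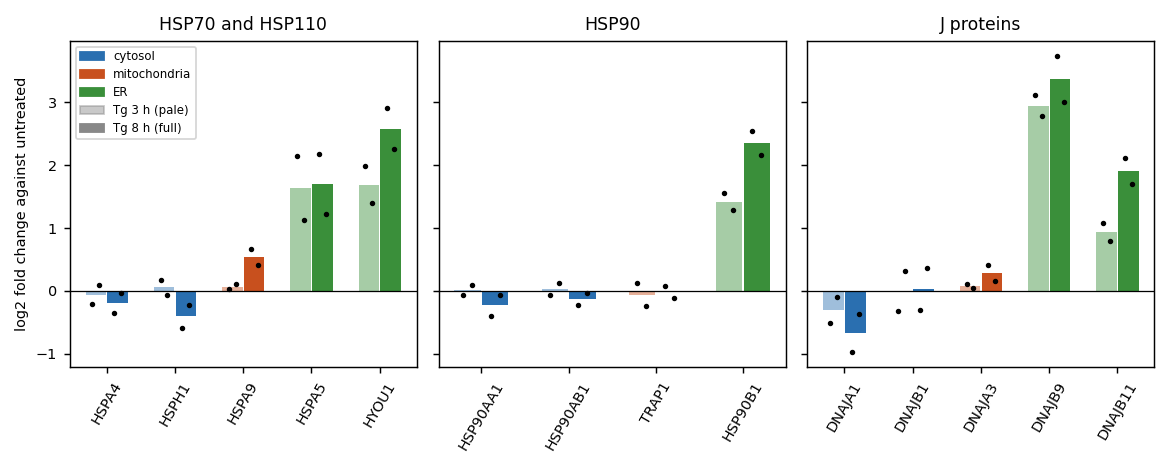
Log2 fold change against untreated (vertical axis) of genes of 3 chaperone families at Tg 3 h (pale bars) and Tg 8 h (full bars), coloured by compartment. Bars are means of 2 replicates and dots the value within each replicate. The ER genes shown stand at 1.70 or more at 8 h, while the cytosolic and mitochondrial genes shown lie between -0.67 and 0.54. Left out are SIL1 of the ER, at 0.61, and PFDN2 and LONP1, at 0.79 and 0.80. The cytosolic genes of the HSP70 panel, HSPA4 and HSPH1, are of the HSP110 class, as HSPA8 had no probe set of its own.

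**Figure D4:**
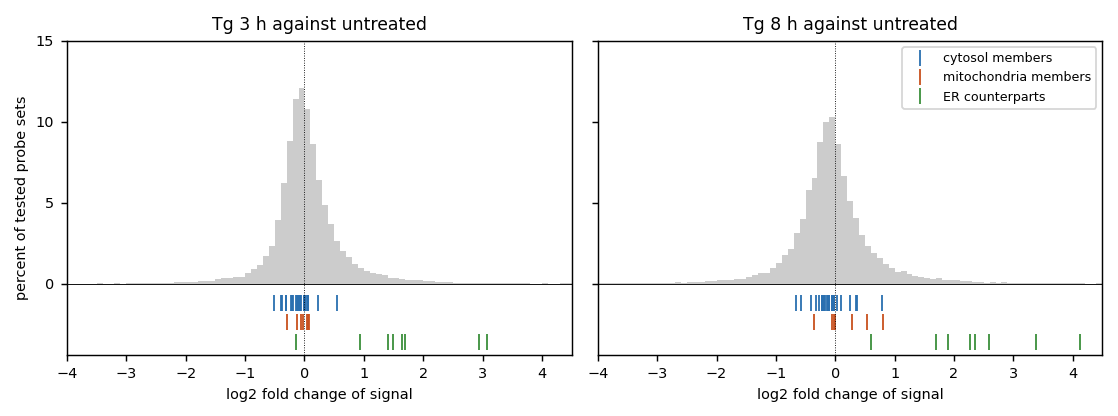
Distribution of the log2 fold change of signal (horizontal axis) over the 27616 tested probe sets in bins of 0.1 (grey bars, percent of probe sets), with ticks for each cytosolic member, mitochondrial member and ER counterpart. The members lie between -0.51 and 0.54 at 3 h and between -0.67 and 0.80 at 8 h. LONP1 and PFDN2 at 8 h lie on the right flank, in a bin with 1.608% of probe sets against 10.27% in the fullest bin. To the right of the central peak at 3 h lie 7 of the 8 ER counterparts.

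Further genes of both compartments were listed by function. Of 46 other cytosolic chaperones and cochaperones 36 were tested, with a median of -0.09 at 3 h and -0.08 at 8 h. At either time 0 passed without the block or by the local pooled error test. Before adjustment, limma without the block had p under 0.05 for 1 higher gene at 3 h (2.85% of all tested probe sets). At 8 h it had this for 1 higher (4.74%) and 2 lower genes (5.23%). With the block, 0 of the 36 rose and 1 fell at 8 h, where 3.79% and 2.8% of all tested probe sets did. The one that fell was FKBP5, an HSP90 cochaperone of steroid receptors, at -0.63 (adjusted p = 0.0255, and 0.344 without the block). It had 1427.1 and 1220.7 at Tg 8 h against 2242.1 and 1848.0 in untreated cells. The lowest value in that list was that of HSPA2, an HSP70 gene known from the testis, at -2.16 on dim signals (adjusted p = 0.267, and 0.064 with the block), with 29.2 and 65.4 at Tg 8 h against 181.2 and 210.9 in untreated cells. The inducible HSP70 genes HSPA1A and HSPA1B had no probe set of their own, and the strictly inducible HSPA6 was too dim to test, at 69.6 and 13.9 in untreated cells, 19.3 and 42.8 at Tg 3 h and 42.2 and 9.1 at Tg 8 h. Of 34 other genes of mitochondrial import, folding, proteolysis and stress signalling 31 were tested, with a median of -0.09 at 3 h and 0.01 at 8 h. Without the block or by the local pooled error test 0 passed. Before adjustment, limma without the block had p under 0.05 for 1 higher gene at 3 h (2.85% of all tested probe sets) and 2 at 8 h (4.74%). With the block, 1 of the 31 rose at 8 h and 0 fell, where 3.79% and 2.8% of all tested probe sets did. This was TIMM17A, a subunit of the import channel of the inner membrane, at 1.01 (adjusted p = 0.000757, and 0.108 without the block). It had 8500.6 and 7364.6 in untreated cells, 10814.4 and 9999.7 at Tg 3 h and 17161.8 and 14703.2 at Tg 8 h, higher at each step on both replicates. The highest value was that of ATF5, a transcription factor of the mitochondrial stress response, at 1.19 (adjusted p = 0.546, and 0.0784 with the block), with 2266.3 and 2266.4 at Tg 8 h against 507.9 and 1942.9 in untreated cells. The calls of FKBP5 and TIMM17A were not tested with an array left out. These lists, like the members, were written with earlier results of these arrays known.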

How the data were processed

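RNA of Daoy cells, untreated or treated with thapsigargin, was hybridized to 6 Affymetrix expression arrays, 2 per group. Per the methods, the authors summarized probe sets with MAS5 in GCOS v1.4 and scaled each array to a 2% trimmed mean, and the deposited values are these intensities on a linear scale. Of 54675 probe sets, 41097 carried 1 symbol, 1801 several and 11777 none. Analyses used R 4.3.3, limma 3.58.1, Python 3.11.15 and pandas 2.3.3. Log2 signals of all 6 arrays were fitted with a group term (lmFit, eBayes with an intensity trend, two-sided), and p-values were adjusted over all tested probe sets. The fits were tested on simulated data.

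Same-numbered arrays shared their deviations from the group means (r = 0.259 to 0.323 across tested probe sets, and 0.657 to 0.7 across the 12451 with a mean signal of at least 500), and the methods speak of independent experiments, so the number was also used as a block. Which cultures share a number is not given in the sources used here. Values are given for members past the threshold in either fit and for the highest and lowest of each role at 8 h, and values of other members, such as HSPD1, HSP90AB1 and DNAJB1, were chosen after they were seen. Alternatives were the block, the local pooled error test, no intensity trend, quantile normalization, median centring, no filter, a stricter filter at 200, a floor at 100, adding 50 before the logarithm, averaging a gene's probe sets, and leaving out each array. The members and lists were chosen with earlier results of these data known.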

Additional observations from a re-analysis of the deposited data

Results flagged for a closer look

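The effect of thapsigargin on PFDN2 differed between the times by the test of Tg 8 h against Tg 3 h with the replicate block, at a log2 fold change of 0.57 (adjusted p = 0.0326 from limma). Without the block the same difference had an adjusted p of 0.79. It was 0.65 within replicate 1 and 0.48 within replicate 2, higher at Tg 8 h on both. With the block, the call was lost without any one of the 4 treated arrays.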

How the results depend on the processing

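The number of members that passed was 0 for each of the 3 comparisons without the block and under each other alternative without it, leaving out any of the arrays included (0 to 0). With the replicate block it was 4 at 8 h and 1 for Tg 8 h against Tg 3 h. With the block and each array left out in turn, an alternative chosen after seeing the data, it was 0 to 1 at 3 h, 1 to 6 at 8 h and 0 to 3 for Tg 8 h against Tg 3 h. HSPB1 passed as lower at 8 h without Tg 8 h replicate 2 and without untreated replicate 2, and HSPH1 as lower without Tg 8 h replicate 2. CDC37 passed as lower at 3 h without Tg 3 h replicate 2 and HSPB1 without untreated replicate 2. Between Tg 8 h and Tg 3 h, CDC37 passed as higher without Tg 3 h replicate 2, Tg 8 h replicate 2 or either untreated array, LONP1 as higher without Tg 8 h replicate 2 or either untreated array, and HSPH1 as lower without Tg 8 h replicate 2. The causes were not tested. The cytosolic minus mitochondrial median was -0.31 to -0.022 at 3 h and -0.36 to -0.11 at 8 h when each array was left out (lowest without untreated replicate 2 at both times), and -0.30 and -0.19 within replicates 1 and 2 at 8 h. With all probe sets of a gene averaged it was 0.045 at 3 h, against -0.063 with the brightest, and -0.045 at 8 h, against -0.114. The median of all tested probe sets moved to -0.13 at 3 h and -0.01 at 8 h with median centring, where the members had -0.19 and 0.00. Of 1496 alternative values of single members, 174 moved by more than the spread between replicates.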
